A study of Arabidopsis thaliana with 6 samples.

Results

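The 10 genes described here belong to the response of plants to abscisic acid (ABA) and drought: NCED3, HAI1, ABI1, ABI2, RD26, RD29B, RAB18, RD20, RD22 and P5CS1. They were taken by gene identifier, without use of their expression values, from a table of 33532 gene identifiers, and all 10 were found. Each had a mean of at least 1 FPKM (sequenced fragments, scaled to the length of the transcript and to the size of the library) over the 6 libraries and so was among the 19035 genes tested. The libraries came from RNA of wild-type seedlings of Arabidopsis thaliana, ecotype Col-0, a common laboratory strain. Seedlings of the control group were kept on solid 1/2 MS medium (a standard plant salt medium) for 10 days. Those of the doxycycline group had the same genotype and time, with 5 µg/mL doxycycline in the medium. Doxycycline belongs to the tetracyclines, antibiotics that inhibit the bacterial-type ribosomes of mitochondria and plastids. By its title the study asked how the transcriptome responds when translation in mitochondria is impaired, and no abscisic acid or drought treatment was part of the design.

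ABA is a plant hormone made from carotenoids that accumulates when water is short. It binds receptors of the PYR/PYL family, and the bound receptor inhibits protein phosphatases of the PP2C clade A, which otherwise hold kinases of the SnRK2 family inactive. Released SnRK2 kinases phosphorylate bZIP transcription factors of the ABF group, and these bind ABA-responsive elements (ABREs) in the promoters of drought and seed-maturation genes. In seedlings the pathway closes stomata and slows growth, and its own phosphatase genes are among those it induces.

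The expression data fell into 3 control and 3 doxycycline libraries, at an estimated 18500000 to 21800000 fragments each. The design text calls the replicates biological, but nothing says that plates or harvests were separate, so p-values measure the spread between these libraries, which may be partly technical. The doxycycline libraries were alike (pairwise Pearson r between 0.988 and 0.992 over genes, log2 scale), and the controls less so (0.831 to 0.895). Control 1 stood apart from controls 2 and 3 and lay nearer to the doxycycline libraries, at 0.961 to 0.964. Whether a label or growth sets control 1 apart could not be settled from the files, so what a control mean, or control 1 alone, stands for is uncertain. The results of the 10 genes, and of other pathway genes given with a test, are therefore also given without control 1 and with control 1 as the only control. Markers of green tissue (RBCS1A, RCA, LHCB1.1 and LHCB2.1) summed to 12499 to 29314 FPKM and those of root (PYK10, CASP1, EXPA7 and COBL9) to 547 to 1604 FPKM. Values written with ± are the mean and SD over the 3 libraries of a group. In such bulk samples, fewer cells of a type and less RNA per cell cannot be told apart.

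Of the 10 genes, 5 kept the groups apart, so that no doxycycline library lay within the range of the controls. RD29B lay higher with doxycycline, and RD20, RD26, ABI1 and P5CS1 lay lower. Over all genes tested, 9.59% lay above every control and 25.7% below, against 1 and 4 of these 10. With limma on log2(FPKM + 1) and Benjamini-Hochberg adjustment over all genes, 0 of the 10 passed an adjusted p of 0.05, as did 0% of all genes. At an unadjusted p under 0.05 there were the same 5 of the 10, against 4876 of 19035 genes, or 25.6%. The median log2 difference of the 10, doxycycline minus control, was -0.76, beside -0.29 for all genes. After median-of-ratios scaling, which brought the median of all genes to 0.00, the median of the 10 was -0.49.

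The promoters of those 5 genes are shown because ABREs are the element through which ABA signalling reaches its targets, and the 5 differ in it. Each is the stretch of 250 bases before the annotated gene start in the RefSeq annotation of assembly TAIR10.1, written 5′ to 3′ on the gene's own strand. Capitals mark every match to the ABRE core, ACGTG on either strand (CACGT when read on the strand shown). The stretches lie on chromosome 5 at chr5:21236771-21237020 on the plus strand for RD29B, and on the minus strand at chr2:14146556-14146805 for RD20, chr4:13709171-13709420 for RD26, chr4:13222377-13222626 for ABI1 and chr2:16603320-16603569 for P5CS1.
RD29B: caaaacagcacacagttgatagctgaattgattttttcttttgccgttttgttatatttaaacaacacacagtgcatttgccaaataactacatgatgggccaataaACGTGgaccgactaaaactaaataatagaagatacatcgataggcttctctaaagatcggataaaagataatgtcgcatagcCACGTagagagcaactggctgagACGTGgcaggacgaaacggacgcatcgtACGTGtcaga
RD20: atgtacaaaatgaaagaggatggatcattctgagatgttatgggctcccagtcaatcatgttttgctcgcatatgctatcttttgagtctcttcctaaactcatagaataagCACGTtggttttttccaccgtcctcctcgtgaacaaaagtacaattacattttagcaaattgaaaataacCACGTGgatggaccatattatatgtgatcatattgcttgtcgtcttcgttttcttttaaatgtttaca
RD26: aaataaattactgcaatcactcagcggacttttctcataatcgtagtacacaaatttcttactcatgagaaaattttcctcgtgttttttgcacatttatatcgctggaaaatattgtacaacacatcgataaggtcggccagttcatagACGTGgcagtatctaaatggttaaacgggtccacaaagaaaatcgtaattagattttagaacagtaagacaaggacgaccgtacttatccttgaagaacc
ABI1: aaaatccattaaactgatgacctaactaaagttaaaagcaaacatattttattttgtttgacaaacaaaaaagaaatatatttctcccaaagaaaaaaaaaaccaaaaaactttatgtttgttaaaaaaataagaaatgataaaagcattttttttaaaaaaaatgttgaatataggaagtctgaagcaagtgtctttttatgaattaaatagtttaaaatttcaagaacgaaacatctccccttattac
P5CS1: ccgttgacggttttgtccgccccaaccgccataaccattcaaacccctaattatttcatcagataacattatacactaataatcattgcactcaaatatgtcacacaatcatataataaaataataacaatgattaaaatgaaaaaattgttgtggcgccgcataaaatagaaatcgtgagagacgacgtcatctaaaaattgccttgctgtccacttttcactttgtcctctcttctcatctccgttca
RD29B held the core at 4 positions, the nearest beginning 10 bases before the gene start. RD20 held it at 3 positions, 2 of them the same palindrome read on both strands, and RD26 at 1, while the windows of ABI1 and P5CS1 held none. Among the other members RAB18 had 3 positions and RD22 had 1, and NCED3, HAI1 and ABI2 had 0. The RAB18 window overlaps an annotated neighbouring gene, AT5G66410, and is not printed. The core was present in 5 of the 10 windows, in 43 of 97 windows of other ABA pathway genes (44.3%) and in 6288 of 27443 windows of protein-coding nuclear genes (22.9%). At 2 or more positions the values were 3 of 10, 27 of 97 (27.8%) and 8.84%. The core of the dehydration-responsive element, CCGAC on either strand, occurred in the windows of RD29B and RD26, and in 3285 of the 27443 windows. MYC-type boxes, CANNTG, which include CACGTG, occurred in 8 of the 10 windows and in 55.3% of all. These matches are a description of letters in a short window. Windows with the core belonged to RD29B, which lay higher with doxycycline, and to RD20 and RD26, which lay lower.

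**Figure D1:**
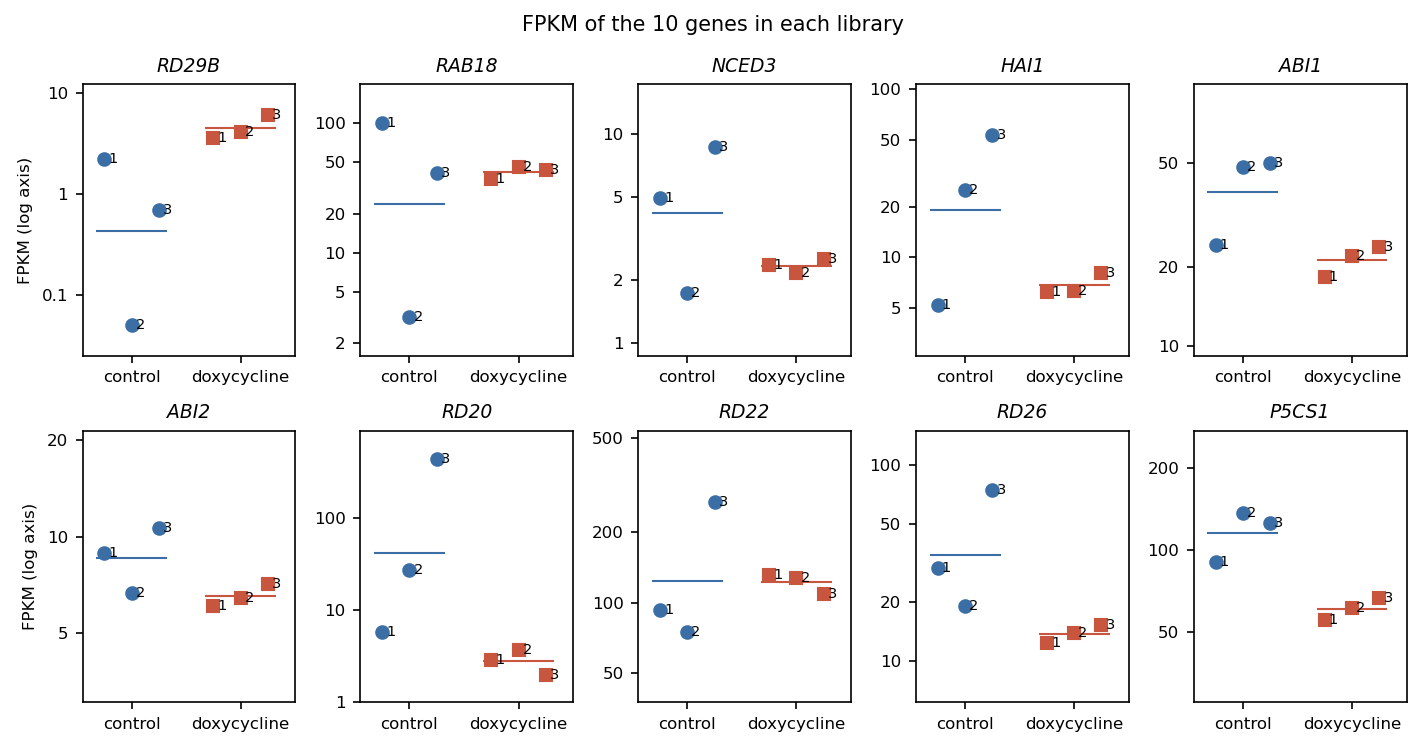
FPKM of each of the 10 genes (vertical log axis) in the 3 control libraries (circles) and the 3 doxycycline libraries (squares), numbered by replicate, with the geometric mean of each group as a line. The doxycycline points sit close together in every panel, while the controls spread from 1.52-fold for P5CS1 to 76.0-fold for RD20.

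NCED3 (AT3G14440) encodes the epoxycarotenoid dioxygenase whose induction by drought limits the rate of ABA synthesis. Controls 1 to 3 held 4.93, 1.73 and 8.61 FPKM, and doxycycline libraries 1 to 3 held 2.35, 2.16 and 2.503 FPKM. The doxycycline values lay below controls 1 and 3 and above control 2, so the groups overlapped. The log2 difference was -0.69 (SE 0.451, limma adjusted p = 0.336). It was -0.62 without control 1 (adjusted p = 0.342) and -0.83 against control 1 alone (adjusted p = 0.0338).

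Of the PP2C clade A phosphatases, which keep the pathway off until the hormone is bound, ABI1 (AT4G26080) stood at 24.2, 48.2 and 49.8 FPKM in the controls. The doxycycline libraries held 18.3, 22.03 and 23.8 FPKM, or 52.5% of the control mean. All 3 lay below every control, by a narrow margin to control 1. By limma the difference was -0.84 (SE 0.301, limma adjusted p = 0.162), and -0.51 after median-of-ratios scaling, where the groups still did not overlap. Without control 1 it was -1.17 (adjusted p = 0.00330), and against control 1 alone -0.18 (adjusted p = 0.513).

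HAI1 (AT5G59220), a phosphatase gene of the same clade that is strongly induced by ABA, stood at 5.19, 25.2 and 53.3 FPKM in controls, against 6.21, 6.32 and 8.05 FPKM under doxycycline. Control 1 was the lowest of the 6 libraries, and the doxycycline values lay between it and control 2. The log2 difference of -1.40 (SE 0.716, limma adjusted p = 0.245) was -2.27 without control 1 (adjusted p = 0.00359) and 0.34 against control 1 alone (adjusted p = 0.267), so its direction rests on which controls are used. ABI2 (AT5G57050), a close relative of ABI1, varied least of the 3 phosphatase genes, with 8.89, 6.65 and 10.7 FPKM in controls, against 6.09, 6.42 and 7.13 FPKM under doxycycline. Doxycycline library 3 lay above control 2, and the log2 difference was -0.35 (SE 0.227, limma adjusted p = 0.335), or -0.06 after median-of-ratios scaling and 0.07 after quantile normalization. Without control 1 the value for ABI2 was -0.33 (adjusted p = 0.268), and against control 1 alone -0.39 (adjusted p = 0.144).

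RD26 (AT4G27410) encodes a NAC transcription factor, also called ANAC072, that is induced by drought, ABA and jasmonate. It stood at 29.9, 19.0 and 74.5 FPKM in controls, against 12.3, 13.8 and 15.2 FPKM under doxycycline, 33.5% of the control mean. Every doxycycline library lay below every control, and control 3 was far above the rest. On the log2 scale the difference was -1.29 (SE 0.455, limma adjusted p = 0.159). It was -1.40 without control 1 (adjusted p = 0.0673) and -1.07 against control 1 alone (adjusted p = 0.0198). After median-of-ratios scaling the difference was -0.98 and the groups overlapped, so the separation of RD26 depends on the scale.

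RD29B (AT5G52300; LTI65 in the reference) encodes a hydrophilic protein of unknown biochemical function and is one of the most used reporters of ABA signalling. Controls 1 to 3 held 2.22, 0.050 and 0.699 FPKM, against 3.58, 4.08 and 6.02 FPKM with doxycycline. The groups did not overlap, and control 2 held almost no transcript: its value corresponds to an estimated 2 fragments, against an estimated 159 to 272 in the doxycycline libraries. Its log2 difference was 1.61 (SE 0.441, limma adjusted p = 0.135). It was 2.03 without control 1 (adjusted p = 0.00474) and 0.77 against control 1 alone (adjusted p = 0.107). RD29B is a low gene, so the pseudocount of 1 shortens its fold: the log2 difference was 2.802 at a pseudocount of 0.1 and 3.29 at 0.01, with limma adjusted p of 0.143 and 0.161. Its tandem neighbour RD29A (AT5G52310), named after its values were seen, which answers to cold and drought as well as ABA, did not share the pattern, at 8.69, 5.58 and 45.7 FPKM in controls, against 6.61, 8.52 and 9.13 FPKM under doxycycline.

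RAB18 (AT5G66400) encodes a dehydrin, a protein of drying seeds and drought-stressed leaves. It stood at 99.8, 3.19 and 41.3 FPKM in controls, against 37.3, 45.7 and 43.6 FPKM under doxycycline. The doxycycline values clustered around control 3, far below control 1 and far above control 2, and the log2 difference was 0.72 (SE 1.04, limma adjusted p = 0.654). It was 1.69 without control 1 (adjusted p = 0.155), -1.23 against control 1 alone (adjusted p = 0.0142) and -0.60 without control 2 (adjusted p = 0.374). The sign of the RAB18 difference therefore depended on the control used. Control 1 was also the highest and control 2 the lowest library for the sum of the 4 seed markers OLEO1, SESA1, SESA3 and CRA1, at 24.7, 0.237 and 7.20 FPKM in controls 1 to 3 against 12.8 to 15.6 FPKM with doxycycline. Most of that sum was CRA1, a seed storage protein gene, while SESA3 was listed at 0 in controls 2 and 3 and doxycycline library 3. SESA1 differed from the sum. It was highest in control 3, at 1.24, 0 and 3.09 FPKM in controls 1 to 3, and 0.137 to 0.203 FPKM with doxycycline. The 4 guard cell markers MYB60, KAT1, GC1 and FMA summed to 269, 62.8 and 173 FPKM in controls 1 to 3 and to 119 to 153 FPKM with doxycycline. Most of that sum was GC1, and only GC1 and KAT1 of the 4 were highest in control 1 and lowest in control 2. FMA, at 7.81, 10.3 and 23.5 FPKM in the controls, was lowest in control 1, and MYB60 was highest in control 3. The part of either cell type in the values of RAB18 and RD29B was not tested.

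RD20 (AT2G33380) encodes a caleosin, a calcium-binding protein of oil bodies with peroxygenase activity, and is induced by drought, salt and ABA. Its controls stood at 5.83, 27.5 and 443 FPKM and its doxycycline libraries at 2.85, 3.71 and 1.97 FPKM, 1.79% of the control mean. All 3 doxycycline libraries lay below the lowest control, and most of the control mean came from control 3. The log2 difference was -3.55 (SE 1.35, limma adjusted p = 0.173), the largest in size of the 10. It was -1.88 without control 3 (adjusted p = 0.279), -4.89 without control 1 (adjusted p = 0.0126) and -0.85 against control 1 alone (adjusted p = 0.0897). Control 3 was also the one library with SAG12, a marker of senescent leaves, above 0, at 6.14 FPKM. Its part in the RD20 value was not tested.

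RD22 (AT5G25610) encodes a BURP-domain protein and is a classic target of MYC2 and MYB2 under drought. It was the most abundant of the 10 with doxycycline, at 131, 127 and 109 FPKM, beside 93.1, 75.3 and 268 FPKM in controls 1 to 3. The doxycycline values lay above controls 1 and 2 and below control 3. By limma the difference was -0.02 (SE 0.456, limma adjusted p = 0.980), or 0.31 after median-of-ratios scaling, -0.22 without control 1 (adjusted p = 0.728) and 0.38 against control 1 alone (adjusted p = 0.127).

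P5CS1 (AT2G39800) encodes the enzyme of the rate-limiting step of proline synthesis, which supplies the proline that drought-stressed plants accumulate. It stood at 90.3, 137 and 126 FPKM in controls, against 55.3, 61.5 and 66.6 FPKM under doxycycline, or 118 ± 24.4 against 61.1 ± 5.66 FPKM (SD, n = 3 each), 51.9% of the control mean. The groups lay apart, and the controls spread 1.52-fold, the narrowest range of the 10. On the log2 scale the difference was -0.92 (SE 0.213, limma adjusted p = 0.128), and -0.59 after median-of-ratios scaling, with no overlap on that scale either. It was -1.10 without control 1 (adjusted p = 0.00317) and -0.56 against control 1 alone (adjusted p = 0.0557). P5CS2 (AT3G55610), a close copy with a role in growth, lay at 44.2, 99.7 and 93.5 FPKM in controls, against 46.3 to 48.9 FPKM under doxycycline, so its groups overlapped. The P5CS2 difference was -1.01 without control 1 (adjusted p = 0.00278) and 0.098 against control 1 alone (adjusted p = 0.598). Reads that such copies share may have been split between them.

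**Figure D2:**
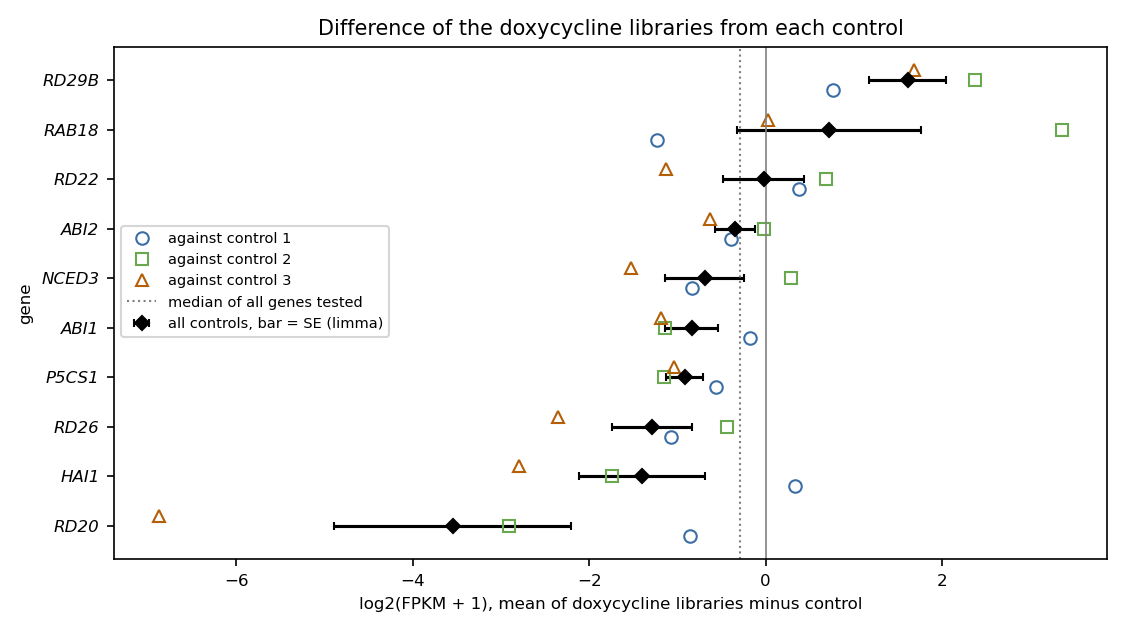
Mean log2(FPKM + 1) of the doxycycline libraries minus each control (open symbols), with the difference from all controls and its limma standard error (diamond and bar), for each gene. RD29B lies right of 0 against every control, RD20, RD26, ABI1 and P5CS1 lie left of 0 against every control, and RAB18 runs from -1.23 against control 1 to 3.36 against control 2.

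The choice of controls decided which of the 10 were called. Without control 1, limma called 5: RD29B higher, and HAI1, ABI1, RD20 and P5CS1 lower. In that fit 9.77% of all genes were called higher and 35.6% lower, so 1 and 4 of 10 were close to the background. With control 1 as the only control, which assumes that it varies like the doxycycline libraries, limma called 3 lower (NCED3, RD26 and RAB18) and 0 higher, where 4.75% of all genes were called lower and 6.78% higher. RD26 had an adjusted p of 0.0673 without control 1, and no gene of the 10 passed in both fits. After median-of-ratios scaling of all 6 libraries, RD29B lay above every control and RD20, ABI1 and P5CS1 below, beside 18.0% and 17.2% of all genes. RD29B, RD20, ABI1 and P5CS1 therefore stayed outside the range of the controls on both scales.

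Most of these genes varied widely between controls. The median standard deviation of log2(FPKM + 1) was 0.946 between controls for the 10 and 0.459 for all genes, and between doxycycline libraries 0.148 and 0.131. Other ABA pathway genes were near the 10, with a median between controls of 0.784 over the wider list and 1.06 over its drought and ABA targets. RD20 and RAB18 exceeded 99.9% and 99.5% of all genes in their control standard deviation, HAI1 96.9%, and ABI2 28.9%. Control 3 was the highest control for 7 of the 10 genes, control 1 for 2 (RD29B and RAB18) and control 2 for 1 (P5CS1). Control 2 was the lowest for 6 and control 1 for 4. Levels are comparable between genes on the FPKM scale, which is per length. With doxycycline the order of mean levels was RD22, P5CS1, RAB18, ABI1, RD26, HAI1, ABI2, RD29B, RD20 and NCED3. Only 3 of the 9 neighbouring pairs in that order overlapped, namely HAI1 with ABI2, RD29B with RD20 and RD20 with NCED3. In the controls RD20 led with a mean of 159 FPKM and RD29B came last with 0.988 FPKM, and all 9 neighbouring pairs overlapped.

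**Figure D3:**
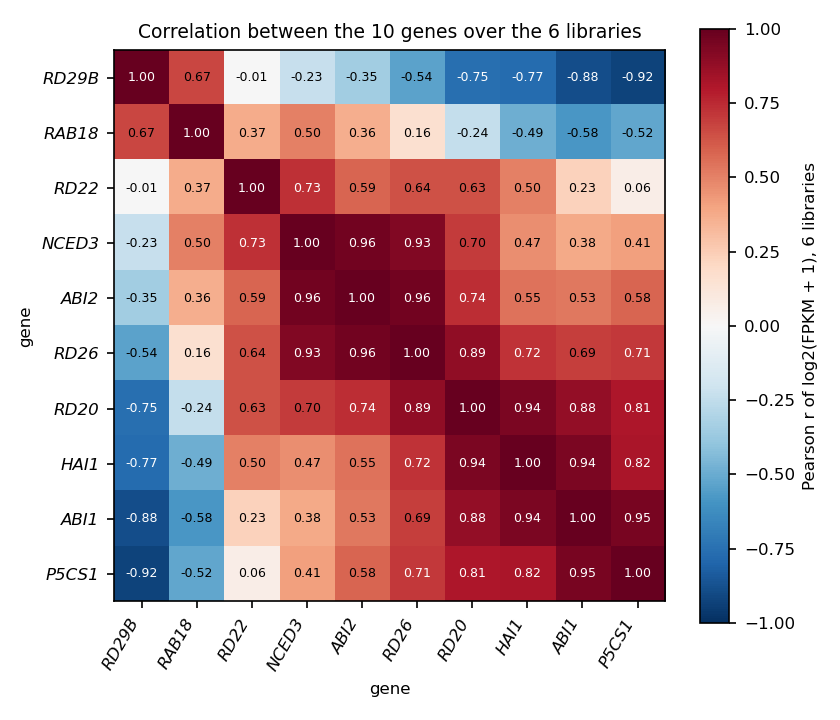
Pearson correlation of log2(FPKM + 1) between each pair of the 10 genes over the 6 libraries, on a colour scale from -1 to 1. RD29B is negatively correlated with P5CS1 (-0.92) and ABI1 (-0.88), while ABI2, RD26 and NCED3 form a block above 0.92.

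Across the 6 libraries, which share their groups and their library effects, the genes followed a few profiles. ABI2 and RD26 correlated at 0.96, NCED3 and ABI2 at 0.96, and NCED3 and RD26 at 0.93, each high in controls 1 and 3. ABI1 and P5CS1 correlated at 0.95, HAI1 and RD20 at 0.94, and HAI1 and ABI1 at 0.94, each high in controls 2 and 3. The summed root markers were also high in controls 2 and 3, at 547, 1604 and 1574 FPKM in controls 1 to 3 and 722 to 802 FPKM with doxycycline. Nearly all of that sum was PYK10, and EXPA7, at 0.696, 0.670 and 6.79 FPKM in the controls, was high in control 3 alone. High in both were the phloem companion cell markers SUC2 and AHA3, which summed to 61.2, 89.3 and 92.4 FPKM in the controls and 54.3 to 63.0 FPKM with doxycycline. Their part in the values of ABI1, HAI1, RD20 and P5CS1 was not tested. RD29B and RAB18, both lower in control 2 than in control 1, correlated at 0.67. Of 45 pairs 12 were negative, and all 12 involved RD29B or RAB18. With 6 points, 3 of them close together, these values are descriptions only.

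For each gene, the 3 genes outside the ABA and marker lists with the most similar profile were also taken. RD29B was closest to LEA18 (AT2G35300), a late embryogenesis abundant gene, at r = 0.997 over 6 libraries, with 5.70, 0.546 and 2.14 FPKM in controls, against 10.3, 14.3 and 19.5 FPKM under doxycycline. AT5G14410 and AT1G17200 followed, at 0.995 and 0.990. Like RD29B, LEA18 was lowest in control 2 and higher with doxycycline than in any control. It was picked for this likeness over the same libraries, so the match adds no evidence for the RD29B pattern. RAB18 was closest to the dark-inducible gene SEN1 (AT4G35770), at r = 0.99, with 993, 35.3 and 357 FPKM in controls, against 402, 430 and 545 FPKM under doxycycline, then to AT1G49500 and AT1G22890. RD20 was closest to MYB15 (AT3G23250), a transcription factor gene, at r = 0.998, with 0.542, 2.85 and 22.3 FPKM in controls, against 0.034, 0.167 and 0.067 FPKM under doxycycline, then to AT1G06620 and AT2G34810. RD26 was closest to AT2G21500, PP2-B11 and SCL13, NCED3 to PGIP2, HMT3 and AT5G51190, and ABI2 to CYP79B3, AT2G07763 and PP2-B11. HAI1 was closest to AT1G23850, AT5G52020 and CAD5, RD22 to LAC7, AT1G49310 and FAD7, ABI1 to AT5G42445, AT1G21370 and SNL2, and P5CS1 to AT5G22450, CAT2 and AT1G04780. Many genes shared some of these profiles: 1484 had an r above 0.95 with ABI1, 1297 with P5CS1 and 514 with HAI1, against 198 with RD29B, 89 with RD20 and 19 with RAB18.

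The rest of the pathway was read from 97 further genes chosen by role, of which 78 were tested. Of the 78, 0 passed an adjusted p of 0.05 with limma. At an unadjusted p under 0.05 there were 30 of the 78 (38.5%), 9 higher and 21 lower, beside 25.6% of all genes. In 9 (11.5%) every doxycycline library lay above every control and in 19 (24.4%) below, close to the 9.59% and 25.7% of all genes. Their median log2 difference was -0.43, beside -0.29 for all genes, and -0.12 after median-of-ratios scaling. Without control 1 limma called 9 higher (11.5%) and 31 lower (39.7%), beside 9.77% and 35.6% of all genes. With control 1 alone it called 4 higher (5.13%) and 11 lower (14.1%), beside 6.78% and 4.75% of all genes.

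**Figure D4:**
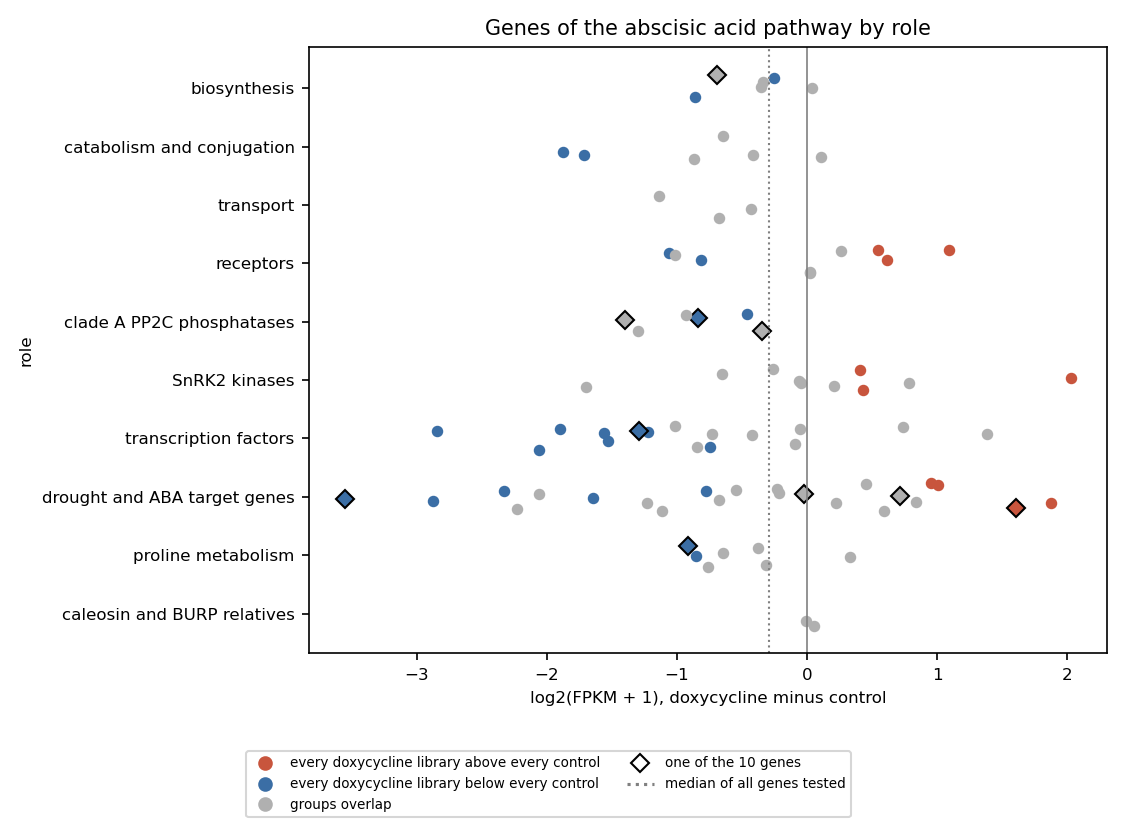
Log2 difference (doxycycline minus control) of each tested gene of the ABA pathway by role, with the 10 genes as diamonds. Colour marks whether every doxycycline library lay above or below every control, and the dotted line is the median of all genes tested, -0.29. Transcription factors lie mostly left of that line, and receptors and SnRK2 kinases lie on both sides.

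Of 5 other synthesis genes tested, 2 (40%) lay below every control, beside 25.7% of all genes. Of 6 breakdown and conjugation genes tested, 2 (33.3%) lay below. In both roles 0 lay above, beside 9.59% of all genes. AAO3, the aldehyde oxidase of the last step of ABA synthesis, stood at 4.10 ± 0.881 FPKM in controls, against 1.79 ± 0.167 FPKM under doxycycline (SD, n = 3 each), with a log2 difference of -0.86 (SE 0.243, limma adjusted p = 0.138). ABA4, which acts on the carotenoid precursors, lay lower by less (23.9 ± 2.91 against 19.9 ± 1.08 FPKM), with an overlap after median-of-ratios scaling, and the molybdenum cofactor sulfurase gene ABA3 overlapped on both scales. NCED2, NCED5, NCED6 and NCED9 were too low to test. CYP707A3, an ABA hydroxylase that inactivates the hormone, stood at 2.05, 6.47 and 8.94 FPKM in controls, against 0.861 ± 0.180 FPKM under doxycycline (log2 difference -1.72, SE 0.449, limma adjusted p = 0.134). BGLU18, which frees ABA from its glucose ester, stood at 46.7, 104 and 313 FPKM against 31.0 ± 4.12 FPKM with doxycycline (SD, n = 3), while the hydroxylase gene CYP707A1 overlapped. Without control 1 and against control 1 alone, the differences were -0.88 and -0.82 for AAO3 (adjusted p = 0.0242 and 0.0369), -2.22 and -0.72 for CYP707A3 (0.00173 and 0.0605) and -2.52 and -0.59 for BGLU18 (0.00687 and 0.0783). None of the 3 transport genes tested was separated. The ABA exporter gene ABCG25 stood at 4.53, 18.0 and 12.0 FPKM in controls, against 4.07 ± 0.461 FPKM under doxycycline, and NPF4.6 and DTX50 had log2 differences of -0.43 and -0.68.

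Receptor genes went both ways. Of 9 tested, 3 (33.3%) lay above every control and 2 (22.2%) below, beside 9.59% and 25.7% of all genes. PYL5 stood at 102, 35.8 and 47.5 FPKM in controls, against 156, 105 and 106 FPKM under doxycycline (log2 difference 1.09, SE 0.391, limma adjusted p = 0.161). PYL8, which acts in root ABA responses, stood at 81.4 ± 8.03 against 119 ± 7.88 FPKM (log2 difference 0.54, SE 0.171, limma adjusted p = 0.144), and PYL6, named after its values were seen, at 4.84 ± 0.650 against 8.05 ± 1.90 FPKM (SD, n = 3 each). These 3 remained above the controls after median-of-ratios scaling. PYL5 rests on controls 2 and 3, with a difference of 1.52 without control 1 (adjusted p = 0.00465) and 0.24 against control 1 alone (adjusted p = 0.527). For PYL8 the values were 0.62 (adjusted p = 0.0140) and 0.39 (adjusted p = 0.0968). Lower were PYL7, at 14.9 ± 5.26 against 7.73 ± 0.391 FPKM with an overlap after scaling, and PYL2, also named after its values were seen, at 6.58 ± 5.17 against 2.16 ± 0.214 FPKM. Among the other PP2C genes of clade A, PP2CA lay below every control at 52.7 ± 5.82 against 73.6 ± 15.9 FPKM (SD, n = 3 each), though not after scaling. HAB1 and HAB2 followed HAI1, with 11.3 and 9.77 FPKM in control 1 and 65.7 and 26.0 FPKM in control 2, 65.0 and 28.1 FPKM in control 3, against 14.4 ± 1.93 and 9.68 ± 0.138 FPKM with doxycycline. Without control 1 both were lower past the threshold, at -2.11 and -1.39 (adjusted p = 0.000912 and 0.00160), while against control 1 alone they differed by 0.32 and -0.012 (adjusted p = 0.267 and 0.964).

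SnRK2 kinases held the lowest p of the wider set. SnRK2.9, a member of the family not activated by ABA, stood at 5.44, 2.24 and 1.25 FPKM in controls, against 10.8, 15.5 and 15.4 FPKM under doxycycline (log2 difference 2.03, SE 0.400, limma adjusted p = 0.121). It was higher past the threshold both without control 1 (adjusted p = 0.00168) and against control 1 alone (adjusted p = 0.0315). SnRK2.4 lay above every control by a smaller step, 81.9 ± 5.20 against 60.7 ± 6.26 FPKM (SD, n = 3 each), as did SnRK2.1, named after its values were seen, at 71.2 ± 5.48 against 54.1 ± 11.1 FPKM. SnRK2.8 stood at 4.95, 35.0 and 25.9 FPKM in controls, against 4.62 ± 1.16 FPKM under doxycycline, overlapping control 1. Without control 1 and against control 1 alone, the differences were 0.50 and 0.28 for SnRK2.4 (adjusted p = 0.0275 and 0.180) and -2.49 and -0.11 for SnRK2.8 (0.00158 and 0.812). For the kinases that carry the ABA signal the groups overlapped, though SnRK2.6 lay above every control after median-of-ratios scaling. The log2 differences of SnRK2.2, SnRK2.3 and SnRK2.6 were 0.79, -0.06 and 0.21, named here after their values were seen. Without control 1 they were 1.30, 0.38 and 0.12 (limma adjusted p = 0.00331, 0.177 and 0.578). Against control 1 alone they were -0.23, -0.94 and 0.37, so the signs of SnRK2.2 and SnRK2.3 depended on the control used.

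Of 15 other transcription factor genes tested, 7 (46.7%) lay below every control and 0 above, beside 25.7% and 9.59% of all genes. After median-of-ratios scaling 8 of the 15 lay below, beside 17.2% of all genes. NAC019 and NAC055, the NAC factors most similar to RD26, stood at 4.42, 3.87 and 14.1 FPKM and at 22.5, 7.35 and 14.8 FPKM in controls, and at 0.992 ± 0.329 and 4.07 ± 0.580 FPKM with doxycycline (SD, n = 3). Their log2 differences were -1.90 (SE 0.458, limma adjusted p = 0.129) and -1.53 (SE 0.379, limma adjusted p = 0.131). MYC2, a factor of jasmonate and ABA signalling that binds the RD22 promoter, stood at 17.0, 55.5 and 196 FPKM in controls, against 7.15 ± 0.651 FPKM under doxycycline (log2 difference -2.85, SE 0.767, limma adjusted p = 0.134). All 3 were also lower past the threshold without control 1 and against control 1 alone, with adjusted p of 0.0149 and 0.0214 for NAC019, 0.0212 and 0.00789 for NAC055 and 0.00303 and 0.0174 for MYC2. The other 4 below every control, named after their values were seen, were ABF3, MYB2, ATHB12 and GBF3. Their log2 differences were -0.74, -1.22, -1.56 and -2.06. Without control 1 these differences were -1.02, -1.64, -2.13 and -2.78, and against control 1 alone -0.18, -0.39, -0.40 and -0.60. ABF3 encodes a bZIP factor that binds ABREs, and MYB2 a factor that acts with MYC2 on RD22. These NAC factors and MYC2 are also jasmonate-responsive. MYC2 and NAC019 were highest in control 3, as were 7 of the 10 genes, RD26, RD20 and RD22 among them. NAC055 was highest in control 1, and a part of jasmonate in these values was not tested.

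Of 19 other drought and ABA target genes tested, 3 (15.8%) lay above every control and 4 (21.1%) below, beside the same 9.59% and 25.7%. After median-of-ratios scaling 5 of the 19 lay above and 3 below, beside 18.0% and 17.2% of all genes. The 3 above every control before scaling were EM6, HVA22B and LEA7, of which EM6 and LEA7 encode proteins of seed maturation and desiccation. HVA22B and LEA7 were named after their values were seen. EM6 stood at 2.02, 0.611 and 0.964 FPKM in controls, against 3.86, 5.07 and 15.2 FPKM under doxycycline (log2 difference 1.88, SE 0.496, limma adjusted p = 0.134). HVA22B stood at 0.582, 0.134 and 0.911 against 1.27, 2.22 and 2.81 FPKM, and LEA7 at 1.16, 2.17 and 3.79 against 4.51, 4.90 and 6.34 FPKM. Like RD29B, EM6 and HVA22B were lowest of all in control 2, the library with the lowest sum of seed markers, but LEA7 was lowest in control 1, the library with the highest. Without control 1 and against control 1 alone, the differences were 2.13 and 1.37 for EM6 (adjusted p = 0.0185 and 0.190), 1.04 and 0.94 for HVA22B (0.0512 and 0.0928) and 0.67 and 1.52 for LEA7 (0.0733 and 0.0174). Of the lower genes, KIN1 stood at 18.1, 15.7 and 58.2 FPKM in controls, against 4.40 ± 1.25 FPKM under doxycycline (log2 difference -2.33, SE 0.490, limma adjusted p = 0.123). The other 3 below every control before scaling were MAPKKK18 and ERD1, both named after their values were seen, and the galactinol synthase gene GOLS1. Their log2 differences were -1.64, -0.78 and -2.87 (for GOLS1, SE 0.952, limma adjusted p = 0.150), ERD1 overlapping after median-of-ratios scaling. Without control 1 these differences were -2.24, -0.96 and -4.10, and against control 1 alone -0.45, -0.42 and -0.41. KIN1 was lower past the threshold in both fits, at -2.57 without control 1 (adjusted p = 0.0110) and -1.85 against control 1 alone (adjusted p = 0.0193). The ABRE core was found in windows of both directions, at 3, 4 and 5 positions for EM6, HVA22B and LEA7, and at 1, 3, 0 and 2 for KIN1, MAPKKK18, ERD1 and GOLS1. The near-identical copy of KIN1, KIN2, also named after its values were seen, stood at 328, 286 and 988 against 492 to 558 FPKM, and how reads were shared between the copies is uncertain. Of 6 other proline genes tested, 1 (16.7%) lay below every control, PRODH2, named after its values were seen, with a log2 difference of -0.85 and an overlap after scaling. P5CR, the second enzyme of synthesis, overlapped at 51.9, 159 and 102 FPKM in controls, against 55.4 ± 2.07 FPKM under doxycycline. PRODH1, which degrades proline in mitochondria, also overlapped, at 82.7, 71.8 and 62.5 against 106, 85.7 and 82.4 FPKM. The caleosin CLO4 and the BURP-domain gene USPL1, relatives of RD20 and RD22, had log2 differences of 0.06 and -0.01.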

How the data were processed

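Seedling RNA was extracted with TRIzol and made into libraries with the VAHTS Universal V6 kit, per the labels' protocols. The authors deposited 1 table of FPKM values. TopHat2 2.1.0 and Cufflinks 2.2.1 with genome TAIR10 are named in the submitters' processing notes, with no role or order. Handling of strand and of multiply mapped reads is not given in the sources used here, so antisense or near-identical genes cannot be told apart. The header names no unit, which was read from the values. FPKM depends on each library's total, so abundant genes move all others.

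Values were analysed as log2(FPKM + 1), which understates changes of low genes, with genes under a mean of 1 FPKM left out. Doxycycline was compared with control using limma 3.58.1 in R 4.3.3 (trend, no covariate, two-sided, Benjamini-Hochberg over 19035 genes, threshold 0.05). The fit was tested on simulated data in which both groups had the spread of the doxycycline libraries. That setting does not cover the wider spread of these controls. Depth was estimated from the FPKM worth of 1 fragment in low genes with 1 model of at least 600 bases. Only 46.2% to 56.8% of low values came out whole within 0.08 fragments (chance gives 16%), so no count model was run.

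The 10 genes, the role and marker lists and the tests were chosen with earlier results of these data known. Named genes are the 10, the 3 with the lowest p in each role and the 3 of most similar profile, by Pearson r among genes with at least 0.5 times the member's standard deviation. Genes outside this rule are marked as named after their values were seen. Names and promoters come from RefSeq (TAIR10.1), which held all 10, and the deposited table has no coordinates. Alternatives were pseudocounts, filters, scalings, robust variances, a replicate block, and libraries left out.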

Additional observations from a re-analysis of the deposited data

How the results depend on the processing

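Leaving out 1 library at a time gave 0 to 8637 genes called by limma over all genes, 0 to 5 of the 10 and 0 to 40 of the wider list. The upper values of these 3 ranges came without control 1. The groups of 5 to 7 of the 10 did not overlap with 1 library left out. Fewer libraries make that easier to meet, and the share of all genes in those settings is not given here. The range is therefore not read as a result about the 10. Without control 3, 2 genes were called. With control 1 as the only control the counts were 2194 genes, 3 of the 10 and 15 of the wider list. In that setting control 1 lay outside the range of the doxycycline libraries for all 10. This is an easier condition to meet with 1 control than with 3, and the share of all genes meeting it is not given here. A filter at a mean of 5 FPKM (which drops RD29B and NCED3) or none at all, pseudocounts of 0.1 and 0.01, both scalings and robust variances gave 0 called in each. Of 148 differences of the 10 genes over 15 alternatives, 133 kept their direction and side of the threshold, 8 changed sign, and 8 passed the threshold (5 without control 1 and 3 against control 1 alone), RAB18 against control 1 alone doing both. RAB18 changed sign without control 2 (-0.60; leaving out 1 library gave -0.60 to 1.69) and against control 1 alone (-1.23), HAI1 against control 1 alone (0.34), and ABI2 after quantile normalization (0.066). RD22 changed sign after median-of-ratios scaling (0.31), without control 3 (0.53; range -0.37 to 0.53), without doxycycline library 3 (0.059) and against control 1 alone (0.38). The cause was not tested, beyond the libraries each setting leaves out. Same-numbered libraries did not deviate together (correlations of -0.00, -0.01 and -0.14), and a replicate block left 0 genes called, with 0 of the 10 and 0 of the wider list, and 5 of the 10 not overlapping. Depth limits RD29B in control 2, at an estimated 2 fragments.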
